A study of Mus musculus with 6 samples.

Results

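The Ly6 surface antigen genes described here are Ly6a, Ly6c1, Ly6c2, Ly6e, Ly6h, Ly6k and Ly6d, 7 of the 54446 gene entries in the deposited count tables, and they were taken by symbol. They were chosen with their levels in these libraries already known, so their levels, shares of cells and differences between the cultures are descriptions and carry no test. Of the 7 genes, 4 (Ly6a, Ly6c1, Ly6c2 and Ly6e) passed the filter on low counts and 3 (Ly6h, Ly6k and Ly6d) did not.

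Transcripts were counted by unique molecular identifier (UMI) in 6 single-cell 5′ libraries of the mouse glioma line GL261, which is used as a model of glioblastoma. The 2 libraries labelled GL261 came from cells in a serum-containing (FCS) differentiation medium, and the 4 labelled GL261-GSCs, for glioblastoma stem cells, from cells in a defined stem cell medium. Cells and neurospheres were separated with Accutase and put into a lysis buffer with a non-ionic detergent, and the labels do not say if whole cells or nuclei were captured. Line label and medium changed together and cannot be told apart, no line is said to be a clone, and nothing says that replicates were separate cultures, so p-values below measure only the spread between these libraries.

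Ly6 proteins are small cell-surface proteins with a fold of 3 finger-like loops, most of them held in the outer membrane by a glycosylphosphatidylinositol (GPI) lipid anchor. Ly6a (Sca-1) marks mouse haematopoietic stem and progenitor cells, Ly6c2 marks inflammatory monocytes, Ly6c1 is found on endothelial cells and some T cells, and Ly6e restricts the entry of several viruses. Ly6a and Ly6e are induced by interferon. Ly6h is a brain member that acts on nicotinic acetylcholine receptors, Ly6k is a testis member needed for sperm function, and Ly6d marks B-lineage-biased lymphoid progenitors and keratinocytes.

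All 7 genes lie on chromosome 15 of the mouse GRCm38 build within 805.2 kb, between positions 74762056 and 75567255 (GENCODE M21). Ly6e (chr15:74955051-74959905, plus strand), Ly6a (chr15:74994877-74998031, minus strand), Ly6c1 (chr15:75044018-75048830, minus strand) and Ly6c2 (chr15:75108158-75111970, minus strand) are neighbours in that order, with Ly6i between Ly6e and Ly6a. Ly6d (chr15:74762056-74763620) and Ly6k (chr15:74796874-74799986) lie on one side and Ly6h (chr15:75551268-75567255) on the other, all on the minus strand. Values count UMIs over whole genes, so no value belongs to 1 exon or UTR.

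Ly6c1 and Ly6c2 are close copies with very different levels here, so the 300 bases around their starts (RefSeq, GRCm38.p6, minus strand, 250 before and 50 after the start) are shown for comparison. RefSeq lists 2 start windows for each gene, and those farthest upstream are shown, chr15:75048788-75049087 for Ly6c1 and chr15:75111922-75112221 for Ly6c2. Capitals mark matches to TATAAA and CCAAT.
Ly6c1: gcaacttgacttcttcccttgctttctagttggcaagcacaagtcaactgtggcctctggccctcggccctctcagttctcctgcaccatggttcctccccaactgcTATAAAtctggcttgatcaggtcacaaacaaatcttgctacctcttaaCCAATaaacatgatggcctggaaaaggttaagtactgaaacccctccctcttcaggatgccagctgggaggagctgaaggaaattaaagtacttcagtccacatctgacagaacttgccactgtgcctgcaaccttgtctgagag
Ly6c2: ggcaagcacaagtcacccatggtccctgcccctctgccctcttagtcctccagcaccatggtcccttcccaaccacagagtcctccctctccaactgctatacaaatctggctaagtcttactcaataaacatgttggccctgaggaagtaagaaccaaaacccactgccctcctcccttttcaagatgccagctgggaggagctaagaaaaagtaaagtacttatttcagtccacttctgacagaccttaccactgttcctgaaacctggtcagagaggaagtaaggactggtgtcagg
The windows of Ly6c1 and Ly6c2 were identical at 208 of 266 aligned positions (78.2%), with 68 gap columns. That of Ly6c1 was identical to the window of Ly6f at 86% of 250 and to that of Ly6g at 84.5% of 252 aligned positions, with 100 and 96 gap columns. The Ly6c1 window shown held TATAAA 143 bases and CCAAT 95 bases before the start. Neither string stood in the other Ly6c1 window or in either Ly6c2 window, so the contrast depends on the window chosen. Of 32851 promoter windows of this length, 13.6% hold TATAAA and 37.4% hold CCAAT on either strand. Both strands were also searched for the STAT-binding GAS string TTCNNNGAA (in 8.30% of all windows), for the AP-1 string TGACTCA (5.20%, with its reverse complement), for the GC box string GGGCGG (35.7%) and for the core of the interferon-stimulated response element (3.44%). None of these was found in either window, which says only that the letters are not there. The farthest upstream windows of Ly6f and Ly6g, further copies in the same cluster, also held both strings, while Ly6f had 0 UMIs and Ly6g 2 UMIs over the 6 libraries. Windows were matched for 2 of the 7 genes.

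The libraries held 4264 to 7275 called cells with 33320530 to 79472306 UMIs, and the median cell had 13651.5 and 15477.5 UMIs in GL261 and 6670 to 15374.5 in GL261-GSCs. Pairs of libraries shared 32 to 59 called barcodes, against 26.1 to 57.9 expected from random draws of the barcode list. Levels are CPM, UMIs scaled to a common library total, over the called cells of a library by TMM normalization. The neural progenitor genes Sox2 (66.8 and 67.5 CPM in GL261, 81.7 to 141 CPM in GL261-GSCs) and Nes (1183 and 1265 CPM, 312 to 563 CPM) were present in all libraries. The astrocyte gene Gfap had 83 and 82 UMIs in GL261 and 0 to 2 UMIs in each GL261-GSCs library. Vim was at 14053.5 and 15218.5 CPM in GL261 and 4355 to 5051 CPM in GL261-GSCs, and Cd44 at 149 and 132 CPM against 53.0 to 76.7 CPM. Olig2, a glial progenitor factor, was at 0.918 and 0.0166 CPM in GL261 and 401 to 787 CPM in GL261-GSCs. Among lineages that use these genes elsewhere, the endothelial marker Cldn5 had 0 UMIs in every library and the leukocyte marker Ptprc 0 to 2 UMIs. Of the 7 endothelial genes, 2 and 4 were at 0 in GL261 and 2 to 4 in GL261-GSCs. Their sum was 48.6 and 36.3 CPM in GL261 and 59.0 to 86.1 CPM in GL261-GSCs, nearly all of it Flt1. Cdh5 of the same list went the other way, with 21 and 28 UMIs in GL261 and 0, 1, 0 and 0 in GL261-GSCs. The 7 lymphoid genes summed to 0.385 and 0.365 CPM against 0.193 to 0.385 CPM. The 9 myeloid genes summed to 18.7 and 18.9 CPM in GL261 against 0.697 to 1.64 CPM in GL261-GSCs, led in GL261 by Csf1r at 12.9 and 12.6 CPM, with 0 and 3 of them at 0 UMIs in GL261 and 2 to 7 in GL261-GSCs. The 6 fibroblast and pericyte genes summed to 258 and 292 CPM against 38.2 to 228 CPM, led in GL261 by Col1a1 at 247 and 282 CPM, with 1 and 3 at 0 UMIs in GL261 and 0 to 1 in GL261-GSCs. Col3a1 went the other way, at 6.01 and 5.0 CPM in GL261 and 22.3, 180, 201 and 174 CPM in GL261-GSCs replicates 1 to 4, and the lowest fibroblast and pericyte sum, 38.2 CPM, was in GL261-GSCs replicate 1, where Ly6e was highest of the 4. Pdgfrb of the same list had 333 and 305 UMIs in GL261 and 1 to 14 in GL261-GSCs. The myeloid sum, Col1a1, Pdgfrb and Cdh5 were higher in GL261, as Ly6a, Ly6c1, Ly6c2 and Ly6e were. The part of these markers in the levels below was not tested.

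Ly6a was an abundant transcript of GL261 and nearly absent from GL261-GSCs. Its level was 503 CPM (33973 UMIs) in GL261 replicate 1 and 664 CPM (40072 UMIs) in replicate 2. The 4 GL261-GSCs libraries held 1, 1, 0 and 0 Ly6a UMIs, or 0.0152, 0.0138, 0 and 0 CPM. The groups did not overlap, with means of 584 ± 114 CPM (SD, n = 2) and 0.00724 ± 0.00838 CPM (SD, n = 4). Pooled over libraries the level was 73775-fold higher in GL261 (95% counting interval 20422 to 609194), an interval that covers counting error only. The 2 UMIs in GL261-GSCs came from 2 cells of 2 libraries. Summed levels by themselves cannot tell fewer expressing cells from less RNA per cell.

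Ly6c1 had the same pattern. It stood at 112 CPM (7575 UMIs) and 109 CPM (6590 UMIs) in GL261, and at 5, 0, 0 and 0 UMIs in GL261-GSCs replicates 1 to 4. All 5 of those UMIs sat in 1 cell of GL261-GSCs replicate 1, which held 26630 UMIs in all, 17 of Plaur and 0 of Olig2, Ly6a and Ly6e. The 980 cells of that library with at least 20000 UMIs had a median of 1 Plaur UMI and 9 Olig2 UMIs, 9 of them had no Olig2 UMI, and that cell was the only one of the library with 17 Plaur UMIs. Since these UMIs come from 1 cell and are not independent, no pooled ratio is given.

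Ly6c2, a close copy of Ly6c1, was close to the limit of detection. It had 12 and 15 UMIs in GL261, or 0.178 and 0.249 CPM, and 0, 0, 1 and 0 UMIs in GL261-GSCs. The groups did not overlap and the pooled ratio was 53.8 (95% counting interval 8.87 to 2203). Its count is uncertain for a further reason: of the distinct 90-base stretches of its coding transcripts, 17.2% also occur in Ly6c1, and at 50 bases 31.2% occur in another gene. For Ly6c1 the share at 90 bases was 12.9% (with Ly6a and Ly6c2), for Ly6a 2.21% (with Ly6c1), and for Ly6e, Ly6h, Ly6k and Ly6d 0%. At 50 bases the shares of Ly6a and Ly6c1 were 19.0% and 32.8%. These shares are over whole coding transcripts, while the libraries are 5′, so they do not measure how many of the counted reads were ambiguous. The sources used here do not give how reads in such stretches were assigned.

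Ly6e was the one member with UMIs in every library. Its level was 446 and 424 CPM in GL261, and 35.1, 4.66, 17.2 and 3.68 CPM in GL261-GSCs replicates 1 to 4. Every GL261 library lay above every GL261-GSCs library, and the means were 435 ± 15.5 CPM (SD, n = 2) and 15.2 ± 14.6 CPM (SD, n = 4), a 28.7-fold ratio. That ratio hides a wide spread within the stem cell cultures, whose highest library was 9.54 times the lowest. The GL261 mean was 12.4 times the level of GL261-GSCs replicate 1, 93.2 times replicate 2, 25.3 times replicate 3 and 118 times replicate 4.

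Ly6h, Ly6k and Ly6d were at or near 0 in both cultures. Ly6h had 2 and 0 UMIs in GL261 and 0 in the 4 GL261-GSCs libraries, so no ratio is given. Ly6d had 3 and 1 UMIs in GL261 and 0 in all GL261-GSCs libraries, and no ratio is given on 4 UMIs. Ly6k had 0 UMIs in GL261 and 0, 0, 0 and 4 in GL261-GSCs. All 4 Ly6k UMIs were in 1 cell of replicate 4 that held 14578 UMIs, and since an annotated gene on the other strand overlaps Ly6k, the source of these UMIs is uncertain. A count of 0 in 4808 or 5002 GL261 cells allows a share of cells with a UMI of up to 0.0624% or 0.0600%. Over the family, 5 of 7 genes had both GL261 libraries above all 4 GL261-GSCs libraries, against 28.1% of the 18433 genes tested, and nothing is read from this since the genes were chosen for it.

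**Figure D1:**
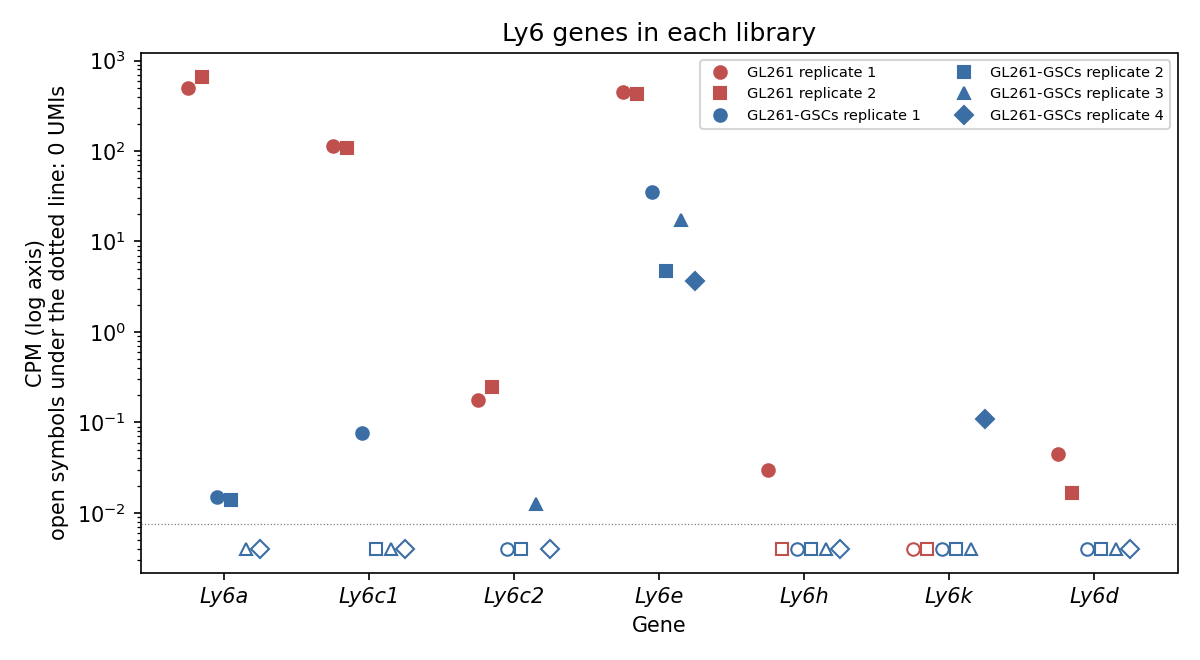
CPM of the 7 Ly6 genes (log axis) in each of the 6 libraries, with open symbols under the dotted line for libraries with 0 UMIs. Ly6a, Ly6c1 and Ly6e stand at 109 to 664 CPM in both GL261 libraries, and Ly6e alone of the 7 has UMIs in all 4 GL261-GSCs libraries, from 3.68 to 35.1 CPM.

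At the level of single cells, each cell was thinned to 2000 UMIs before counting those with at least 1 UMI. Ly6a was found in 46.3% of cells of GL261 replicate 1 (95% exact binomial interval 44.9 to 47.7) and 54.7% of replicate 2 (53.3 to 56.0), and in 0 cells of each GL261-GSCs library, which allows a share of up to 0.0412 to 0.0704%. Without thinning the GL261 shares were 83.7% and 87.9%. Barcodes with at least 100 and under 1000 UMIs were taken as RNA free in the suspension, though they may also hold damaged cells. They held more Ly6a than the cells did, 673 and 713 CPM against 478 and 609 CPM, both without TMM scaling. If every UMI of a thinned cell came from those barcodes, 74.0% and 76.0% of GL261 cells would hold a Ly6a UMI, here called the free RNA level. The shares of Ly6a cells in GL261 lie below that level. A gene spread unevenly over cells falls below it at the same mean, and how much free RNA a cell held was not estimated. The comparison therefore cannot tell how many cells express the gene.

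For Ly6c1 the thinned shares were 16.9% and 15.6% in GL261 (53.4% and 51.9% unthinned), again below the free RNA level of 23.4% and 18.7%. Ly6e was found in 53.2% and 52.0% of GL261 cells (92.9% and 92.5% unthinned), beside a free RNA level of 57.0% and 49.3%. In GL261-GSCs the thinned Ly6e shares were 6.50%, 0.681%, 3.13% and 0.842%, beside a free RNA level of 6.12%, 1.17%, 4.59% and 0.791%. The unthinned Ly6e shares were 29.9%, 4.0%, 14.4% and 2.50%. The Ly6e shares of replicates 2 and 3 were at or below the free RNA level, and in replicates 1 and 4 the free RNA level lay inside the binomial interval (5.77 to 7.28% and 0.597 to 1.15%). That level supposes that every UMI of a cell is free RNA, so the comparison cannot tell how many cells express Ly6e. Cells with several UMIs are counted after the plot. Among the Ly6a, Ly6c1 and Ly6e shares of the 6 libraries, 1 stood above the free RNA level by more than its interval, that of Ly6e in GL261 replicate 2 (50.6 to 53.4%).

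**Figure D2:**
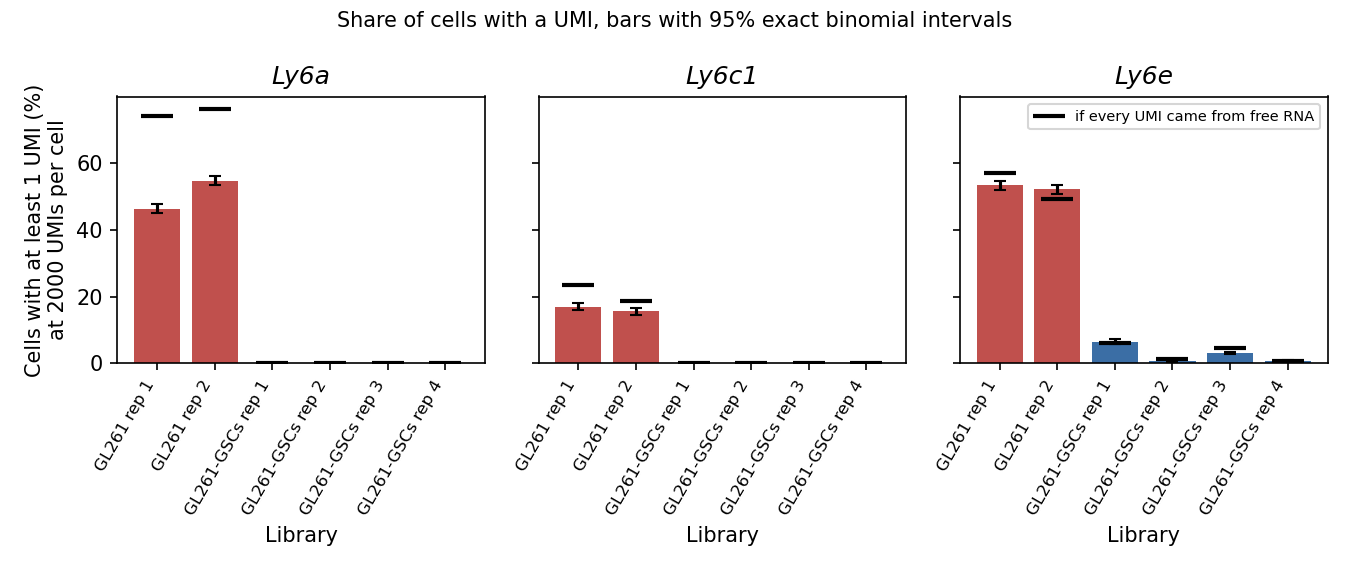
Share of cells (percent) with at least 1 UMI of Ly6a, Ly6c1 or Ly6e after thinning to 2000 UMIs, as bars with 95% exact binomial intervals. Black lines give the share if every UMI of a cell came from free RNA of the same library. For Ly6a the lines at 74.0% and 76.0% stand well above the GL261 bars at 46.3% and 54.7%.

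In unthinned cells, 3 or more Ly6e UMIs were seen in 3676 of 4808 and 3722 of 5002 GL261 cells (76.5% and 74.4%). Cells made of free RNA alone would give 83.3% and 73.6%. Since the amount of free RNA in a cell was not estimated, this comparison too cannot tell how many GL261 cells express Ly6e. In GL261-GSCs replicates 1 to 4, 3 or more Ly6e UMIs were seen in 248 of 4264, 26 of 5870, 62 of 7275 and 4 of 4512 cells. That was 5.82%, 0.443%, 0.852% and 0.0887% of cells. Cells made of free RNA alone would give 1.78%, 0.0083%, 0.372% and 0.0009%. The highest cells held 12, 6, 4 and 3 UMIs. Among the 4 GL261-GSCs libraries, replicate 1 thus had the most such cells, in number and in share. Its median depth was 15374.5 UMIs, against 6670 in replicate 4.

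Ly6a was spread unevenly over GL261 cells. After thinning to 5000 UMIs (4360 and 4515 cells) the mean was 2.42 and 3.11 UMIs per cell, 31.4% and 22.3% of cells had none, and the highest cells had 27 and 36. The 10% of cells richest in Ly6a held 40.6% and 36.8% of its UMIs. Its overdispersion, the variance beyond Poisson noise divided by the squared mean, was 1.28 and 0.996, against a median of 0.178 and 0.129 over the genes with a mean of at least 0.2 UMIs. Ly6c1 was still more uneven, with an overdispersion of 2.36 and 1.67 and 55.9% and 55.0% of UMIs in its richest 10% of cells. Ly6e was not, with 0.217 and 0.150 and 27.3% and 26.6%. In GL261, Ly6a and Ly6c1 thus differed between cells of 1 library far more than the typical gene did, and Ly6e about as much. In GL261-GSCs replicates 1 to 4 the overdispersion of Ly6e was 1.88, 11.9, 1.12 and 7.09, against medians of 0.181, 0.161, 0.219 and 0.258. Its means there, 0.021 to 0.182 UMIs per cell, lay under the 0.2 UMIs asked of the genes in those medians.

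Cells rich in Ly6a were also rich in Ly6c1. Across thinned cells of a library, the Pearson correlation of log counts between them was 0.476 in GL261 replicate 1 (4360 cells) and 0.413 in replicate 2 (4515 cells), and Ly6c1 ranked first of 4267 genes for Ly6a, and Ly6a first for Ly6c1. These are descriptions: the cells of a correlation share a library, and both genes share some transcript stretches. Ly6a and Ly6e correlated at 0.233 and 0.126, and Ly6c1 and Ly6e at 0.173 and 0.0879. The correlation of Ly6a with the depth of a cell before thinning was 0.0219 and 0.0163.

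The same pattern shows in mean UMIs. In GL261 replicate 1, Ly6c1 averaged 0.148 UMIs in the 1371 cells with no Ly6a UMI and 2.25 in the 298 cells with 8 or more. In replicate 2 the averages were 0.139 in 1006 cells and 1.62 in 460 cells. Ly6e went from 1.73 to 3.23 and from 1.65 to 2.28 between the same classes. Plaur, the urokinase receptor of the same superfamily, averaged 1.47 and 1.42 in cells with no Ly6a UMI and 1.49 and 1.34 in the richest class. The summed G2/M genes were lower in the Ly6a-rich class, 10.9 against 17.0 UMIs and 14.8 against 18.4. The summed interferon-induced genes were higher, 16.3 against 11.4 UMIs and 8.20 against 6.45. Those differences across cells of 1 library carry no test.

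**Figure D3:**
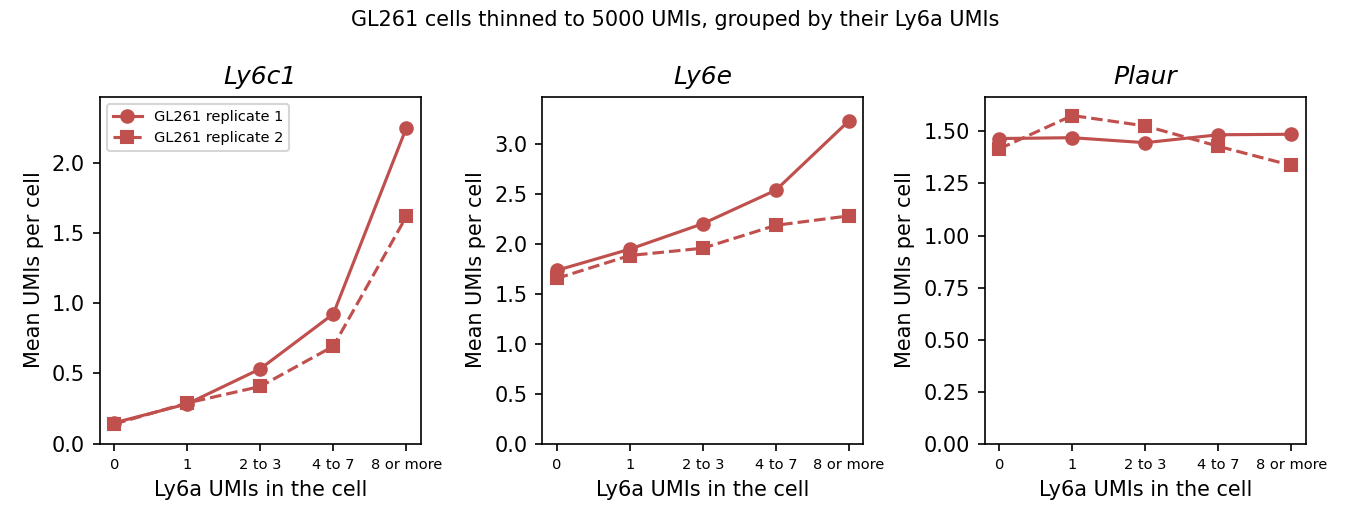
Mean UMIs per cell of Ly6c1, Ly6e and Plaur in GL261 cells thinned to 5000 UMIs and grouped by their Ly6a UMIs, with 1 line per GL261 library. Ly6c1 climbs from 0.148 to 2.25 and from 0.139 to 1.62 UMIs, Ly6e from 1.73 to 3.23 and from 1.65 to 2.28, and Plaur stays between 1.34 and 1.58.

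Other genes that went with Ly6a across GL261 cells did so more weakly. After Ly6c1 came Tspo, a mitochondrial outer membrane protein (0.256 and 0.237), Sparc, a matrix glycoprotein (0.203 and 0.204), the small heat shock protein Cryab (0.251 and 0.191), the metalloproteinase inhibitor Timp3 (0.189 and 0.224) and the tetraspanin Cd9 (0.212 and 0.182). The 4 most negative of the 4108 genes ranked were Hnrnpa2b1 (-0.156 and -0.137), Hnrnpu (-0.164 and -0.116), Ncl (-0.121 and -0.0983) and Srsf2 (-0.108 and -0.0929). For Ly6c1 the next after Ly6a were Sparc (0.151 and 0.129), Dbi, Cd9, Cryab and Gpx1, all at 0.132 or below. Ly6c2 reached no more than 0.0798 with any of its first 6 genes, which in counts this sparse is no finding. Over all 6 libraries, the genes that went most with Ly6e (Emp3, Mif, Nhp2, Uqcrq, Eif3k and Ftl1) had a lowest correlation of 0.0256 to 0.0371, likewise no finding.

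The remaining genes of the Ly6/uPAR superfamily were tested across libraries with the edgeR quasi-likelihood test and Benjamini-Hochberg adjustment over all 18433 genes, of which 29.9% were called at an adjusted p of 0.05 (14.1% lower and 15.8% higher in GL261-GSCs). Of 39 listed genes 32 were in the tables, 6 of those had 0 UMIs everywhere, and 10 could be tested. Of these 10, 5 were called lower and 2 higher in GL261-GSCs. The filter asks for at least 2 libraries at 0.147 CPM or more, and 4 of the 7 called (Ly6i and Psca lower, Lypd3 and Tex101 higher) met it in 1 group alone. Their direction was fixed by the filter, so no p is given for them and nothing is read from the counts or the median of the list. That median was -1.84 on the log2 scale, against 0.04 over all genes tested, and -0.19 over 26 genes with no filter, -0.87 with barcodes of at least 1000 UMIs, and -0.63 and -0.87 without GL261 replicate 1 and replicate 2, where 4 and 3 were called.

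Plaur, the receptor for urokinase, was at 317 and 323 CPM in GL261 and 51.8, 45.3, 51.5 and 36.4 CPM in GL261-GSCs. The groups stood well apart, and Plaur fell by 2.79 on the log2 scale (SE 0.164, edgeR adjusted p = 0.00012). Slurp1, which encodes a secreted Ly6 protein of epithelia, was at 10.2 and 14.0 CPM in GL261 and 0.167, 0.304, 0.325 and 0.412 CPM in GL261-GSCs, and fell by 5.34 (SE 0.353, edgeR adjusted p = 0.000169). Slurp1 overlaps Them6 on the other strand, and the sources used here do not give whether strand was counted. Ly6i, the neighbour of Ly6a, had 21 and 17 UMIs in GL261 and 0 in each of the 4 GL261-GSCs libraries, at least 25.2-fold higher in GL261 against a floor of 3 UMIs over the group. Of its 50-base stretches 4.76% occur in another gene.

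Lypd3, a GPI-anchored adhesion protein of epithelia, went the other way. It was at 0.0444 and 0.116 CPM in GL261 and 1.17, 1.08, 1.66 and 2.50 CPM in GL261-GSCs, on 10 UMIs in GL261. The remaining called genes were Lynx1, Psca and Tex101, named here after their values were seen. Lynx1, which modulates nicotinic receptors, fell from 10.4 to 1.43 CPM as group means (edgeR adjusted p = 0.0098, and 0.0736 without GL261 replicate 2). Psca was at 0.475 and 0.0225 CPM in GL261 and GL261-GSCs, and Tex101, a germ cell partner of Ly6k, at 0.105 and 3.77 CPM. Ly6i, Psca and Tex101 were no longer called with either GL261 library left out. The complement inhibitor Cd59a was at 4.80 CPM in GL261 and 4.05 CPM in GL261-GSCs and was not called (edgeR adjusted p = 0.519).

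GPI anchors are built in the endoplasmic reticulum by the Pig enzymes and remodelled by Pgap proteins. Of 28 listed genes found and tested, 4 rose and 4 fell, 28.6% against 29.9% of all genes, with a median of 0.08 against 0.04 over all genes. Without GL261-GSCs replicate 3, 2 were called higher and 5 lower. Pgap1 rose from 5.49 to 20.7 CPM (log2 change 1.92, SE 0.227, edgeR adjusted p = 0.00146) and Pigg from 12.6 to 22.4 CPM (edgeR adjusted p = 0.0151). Mppe1 fell from 17.6 to 6.44 CPM (log2 change -1.45, SE 0.148, edgeR adjusted p = 0.0008) and Pigp from 38.7 to 26.3 CPM (edgeR adjusted p = 0.0154). Pgap1 removes an acyl chain from the inositol of new anchors, and Mppe1 removes a phosphoethanolamine side group. Scaling by library size alone gave 5 higher and 3 lower, and without either GL261 library 2 were called, Pgap1 and Mppe1.

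Interferon receptors and their signalling genes moved both ways. All 15 were tested, and 4 rose and 2 fell (library size scaling gave 4 and 1), with a median of -0.30. That median ranged from -0.36 to -0.10 with 1 library left out and was -0.14 under library size scaling. Ifngr2, a chain of the interferon gamma receptor, was at 20.5 and 19.3 CPM in GL261 and 33.8, 40.2, 70.6 and 64.3 CPM in GL261-GSCs, and rose by 1.39 (SE 0.333, edgeR adjusted p = 0.0212). The kinase Jak2 rose by 0.98 and the transcription factor Irf2 by 0.78 (edgeR adjusted p = 0.0213 and 0.0226). The feedback inhibitor Socs3 was at 23.2 and 22.0 CPM in GL261 against 3.14, 4.08, 3.11 and 4.45 CPM, and fell by 2.61 (SE 0.204, edgeR adjusted p = 0.000313). Those called were 40.0% of the list against 29.9% of all genes, with 26.7% higher against 15.8% and 13.3% lower against 14.1%. Without either GL261 library 1 gene was called, Socs3, and without GL261-GSCs replicate 3, 2 were called, no longer with Jak2 and Irf2 among them (edgeR adjusted p = 0.0503 and 0.0549). Without GL261-GSCs replicate 1, 9 were called, and without replicate 4, 4 were called.

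Of 35 interferon-induced genes tested (36 listed), 10 fell and 1 rose in GL261-GSCs, 28.6% lower against 14.1% of all genes, with a median of -0.92 (-0.24 without GL261 replicate 1 and -1.56 without GL261 replicate 2). Of the 10, 1 (Iigp1) met the filter on low counts in GL261 alone. The count changed with the libraries used: without GL261 replicate 1 it was 1 lower and 2 higher. It was 5 lower and 0 higher without GL261 replicate 2. Without GL261-GSCs replicate 2, 3 or 4 in turn, 6 were called, and without GL261-GSCs replicate 1, 16. Xaf1 was at 75.5 and 32.9 CPM in GL261 and 13.9, 3.93, 4.85 and 5.41 CPM in GL261-GSCs, and fell by 2.94 (SE 0.554, edgeR adjusted p = 0.00886). Ifit2 fell from 16.0 to 1.55 CPM, Parp14 from 12.0 to 2.80 CPM and Samhd1 from 64.3 to 36.4 CPM (edgeR adjusted p = 0.0115, 0.00793 and 0.00673). Without GL261 replicate 1 Xaf1, Ifit2 and Parp14 were not called (edgeR adjusted p = 0.0846, 0.0709 and 0.0867), and without replicate 2 Ifit2 and Samhd1 were not (0.0607 and 0.0914). Rsad2 alone rose, from 6.01 to 29.6 CPM (edgeR adjusted p = 0.0166, and 0.113 without GL261 replicate 2), and is named here after its values were seen.

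The summed level of the 36 genes was 2628 and 1510 CPM in GL261, higher in replicate 1. Ly6c1 (112 and 109 CPM) and Ly6e (446 and 424 CPM) were also higher in replicate 1, and Ly6a in replicate 2. In GL261-GSCs the sum was 1583, 1208, 1097 and 905 CPM in replicates 1 to 4. Ly6e was highest in replicate 1 and lowest in replicate 4 as well, but stood at 17.2 CPM in replicate 3 and 4.66 CPM in replicate 2. The GL261-GSCs replicate 1 sum was above that of GL261 replicate 2, so the sums of the groups overlapped. Without Bst2, the highest gene of the list, the sums were 1758 and 1004 CPM in GL261 and 941, 686, 748 and 646 CPM in GL261-GSCs. Those sums did not overlap and had the same order of GL261-GSCs libraries as Ly6e. That order depends on the genes kept: Psmb8 alone was at 42.4 CPM in GL261-GSCs replicate 2 and 141 CPM in replicate 3, a wider gap than between those sums. The median gene of all 36 was at 24.1 and 8.15 CPM in GL261 and 9.64, 3.58, 3.22 and 2.43 CPM in GL261-GSCs. Those medians overlapped and had another order than Ly6e.

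**Figure D4:**
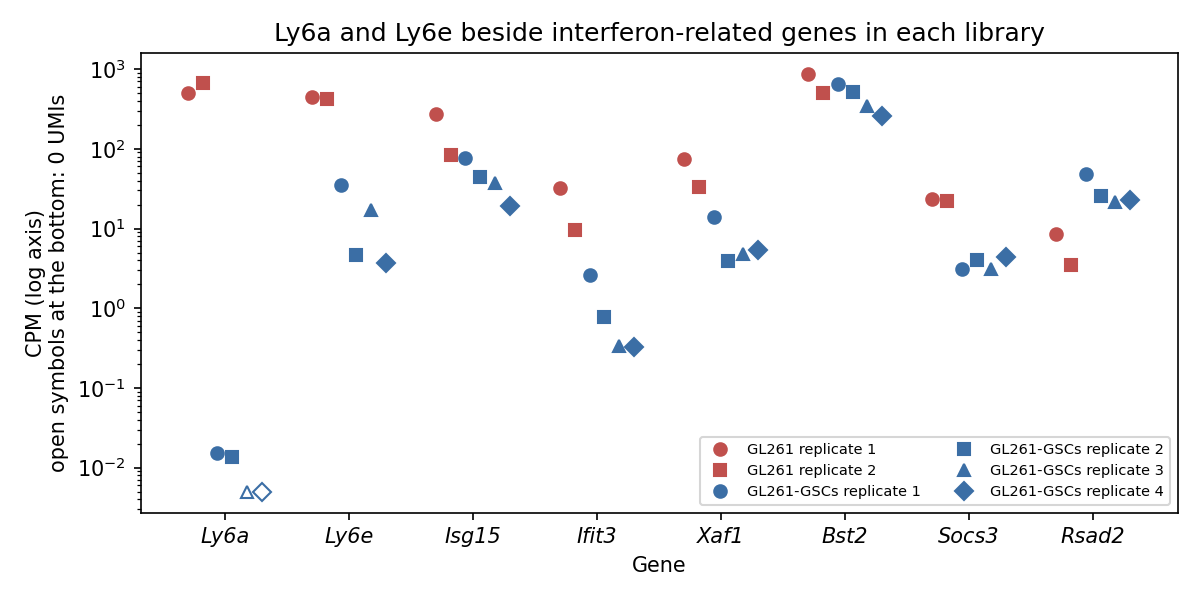
CPM (log axis) of Ly6a, Ly6e and 6 interferon-related genes in each library, with open symbols at the bottom for 0 UMIs. The Bst2 symbols of the cultures overlap (870 and 506 CPM in GL261, 259 to 642 CPM in GL261-GSCs), and those of Ly6a and Ly6e do not. Rsad2 lies higher in GL261-GSCs. Isg15, Ifit3, Bst2 and Rsad2 were picked after their values were seen.

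Around the Ly6 cluster, 38 of 46 tested genes from outside the Ly6/uPAR family were not called. Of 108 such genes that start within 1 Mb, 46 could be tested, and 6 were called lower and 2 higher, 17.4% against 29.9% of all genes, and their median log2 change was 0.00. Of the 6 lower genes 4 (Arc, Eppk1, Mroh6 and Scx) met the filter in GL261 alone, so that their direction was fixed by it. Besides the 7 Ly6 genes, 12 genes of the family start in the same window and were left out of these counts. The 4 of them that could be tested, Psca, Slurp1, Lynx1 and Ly6i, were lower in GL261-GSCs, against 14.1% of all genes called lower. Since Ly6i and Psca met the filter in GL261 alone, nothing is read from the count. No tested gene from outside the family started between Ly6d and Ly6h. The nearest to Ly6a on the sides of Ly6d and Ly6h were Them6, 276.8 kb away (112 and 145 CPM as group means, edgeR adjusted p = 0.38), and Zfp41, 618.6 kb away (6.07 and 7.98 CPM, edgeR adjusted p = 0.155). Plec, which encodes the cytoskeletal linker plectin, fell from 1308 to 360 CPM (log2 change -1.86, SE 0.155, edgeR adjusted p = 0.000382). Scx and Eppk1 had 106 and 22 UMIs in GL261 and 27 and 6 in GL261-GSCs. Maf1, a repressor of RNA polymerase III, rose from 74.2 to 135 CPM (edgeR adjusted p = 0.00236). The direction depended on the setting: without GL261-GSCs replicate 4, 8 were called higher and 6 lower, and with a replicate block 10 and 8. Without GL261 replicate 1 and replicate 2, 3 and 4 were called. Library size scaling gave 6 higher and 5 lower and DESeq2 5 and 7.

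**Figure D5:**
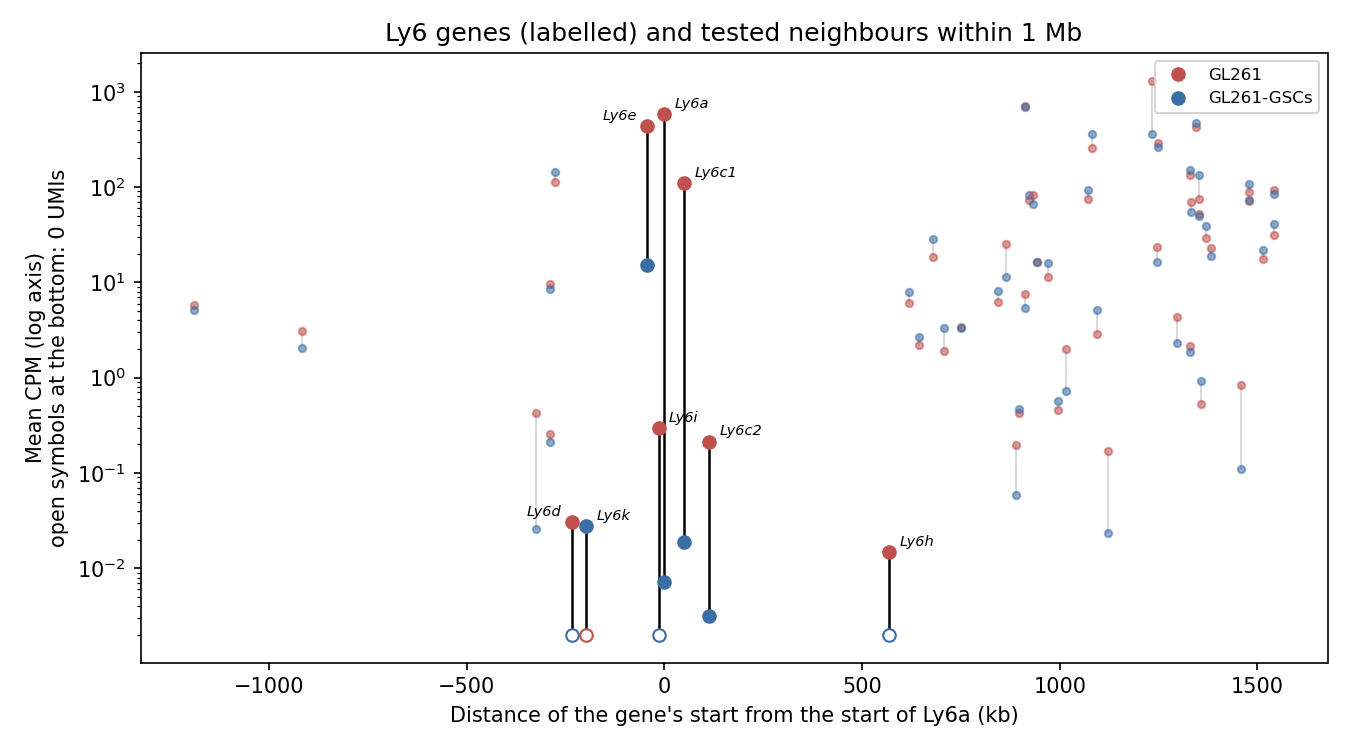
Mean CPM (log axis) in GL261 and GL261-GSCs of 7 Ly6 genes and Ly6i (labelled, joined by black lines) and of 46 tested neighbours (grey lines), by the distance of each start from the start of Ly6a in kb, with open symbols for 0 UMIs. The long lines of Ly6a and Ly6c1 stand in a stretch without tested genes from outside the Ly6/uPAR family, between Them6 at 276.8 kb and Zfp41 at 618.6 kb.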

How the data were processed

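The authors deposited raw UMI counts per gene and barcode from 6 libraries, which Cell Ranger 4 wrote per the file headers, and barcodes were not filtered. The build is mm10 per the submitters' processing notes. The sources used here give neither strand counting nor an annotation release. Of 54352 symbols, 54316 matched GENCODE M21 (94 entries sharing a symbol were left out). Members and lists were chosen with earlier results of these data known.

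A cell was a barcode with 500 genes or more, at least 10% of the UMIs at the 99th percentile of its library's 3000 largest barcodes, and under 10% mitochondrial UMIs; doublets were not removed. UMIs were summed per library and tested with edgeR 4.0.16 (R 4.3.3, TMM, filterByExpr, quasi-likelihood, Benjamini-Hochberg, 2-sided), with DESeq2 1.42.0 and limma 3.58.1 (voom) as alternatives, and the test was checked on simulated data. The SE of a log2 change is the change divided by the root of F. Intervals are 95% and cover counting error only; a share of 0 has the share of 3 cells as its limit. Named were all 7 members, the 4 called genes of smallest p in each list, marker genes, and the genes most correlated with Ly6a, Ly6c1, Ly6c2 and Ly6e, leaving out predicted, mitochondrial and ribosomal protein genes.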

Additional observations from a re-analysis of the deposited data

Results flagged for a closer look

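In groups of 4 libraries, 4 of the 24 values checked had 1 GL261-GSCs library far from the other libraries of its group by Dixon's test, a test that chance passes in about 1 of 20 groups. For Ly6c1, Ly6c2 and Ly6k the other 3 libraries were at 0, so that any UMI in the remaining library passes and that rate does not apply. Ly6c1 stood at 0.0758 CPM in replicate 1, with 0 CPM in the other libraries, all 5 UMIs being in 1 cell. Ly6c2 stood at 0.0125 CPM in replicate 3, which is 1 UMI, with 0 in the others. Ly6k stood at 0.110 CPM in replicate 4, from the 4 UMIs of 1 cell, with 0 in the others. For Xaf1 replicate 1 was at 13.9 CPM and the others at 3.93 to 5.41 CPM.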

How the results depend on the processing

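Among results with no test, the direction of every member difference held under each scaling and cell calling tried; leaving out GL261 replicate 1 took the Ly6h difference to 0 CPM, and leaving out GL261-GSCs replicate 4 did the same for Ly6k. Library size scaling changed the Ly6c1 and Ly6e differences (GL261-GSCs minus GL261) from -111 to -103 CPM and from -420 to -391 CPM, moved the median of all genes from 0.04 to 0.18 on the log2 scale, and called 63.2% of changed genes higher in place of 53.0%. The differences in shares for Ly6a, Ly6c1 and Ly6e, -50.5, -16.2 and -49.9 percentage points at 2000 UMIs, were -85.8, -52.7 and -80.0 unthinned and -34.2, -9.19 and -29.9 at 1000 UMIs, so they depend on depth. The mean correlations of Ly6a with Ly6c1, 0.444, and with Ly6e, 0.180, were 0.296 and 0.103 at 2000 UMIs and 0.571 and 0.291 unthinned, and that of Ly6c1 with Ly6e went from 0.130 to 0.0827 at 2000 UMIs and 0.220 unthinned. Leaving out 1 library at a time, the genes called (5514 with all) ranged from 1816 to 6192, the other Ly6/uPAR genes (7) from 3 to 7, GPI anchor genes (8) from 2 to 10, interferon signalling genes (6) from 1 to 9, interferon-induced genes (11) from 3 to 16 and neighbours (8) from 3 to 14, with the low ends where a GL261 library was left out and the lone library was assumed to vary like the others. With a replicate block, 20 interferon-induced genes and 18 neighbours were called. Whether the shared numbers pair the libraries is not known. Correlations of same-numbered deviations were -0.0264 and 0.0368. With 2 GL261 libraries the deviations of replicate 2 mirror those of replicate 1, so these values cannot decide it. The block left the other counts within 1.5 times. Of the 29 genes named in lists, 24 were called, and over these settings 27 values lost their call (12 without GL261 replicate 1, 13 without GL261 replicate 2 and 2 without GL261-GSCs replicate 3). Them6 was called with the block (log2 change 0.68). No called gene changed direction, while Cd59b, not called, went from 0.04 to -0.42 under limma-voom and ranged from -0.34 to 0.39 with 1 library left out. Members with under 30 UMIs in all, Ly6c2, Ly6h, Ly6k and Ly6d, are limited by depth.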

Other observations

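Some further tested members of the superfamily were not called. Ly6g6d, a gene of the major histocompatibility complex region that overlaps Ly6g6e on the other strand, was at 1.54 and 1.59 CPM in GL261 and 0.364, 0.925, 0.900 and 1.21 CPM in GL261-GSCs (log2 change -0.89, SE 0.439, edgeR adjusted p = 0.168). The 2 groups did not overlap in it, although it was not called. Cd59b, a further complement inhibitor gene, was at 0.178 and 0.215 CPM against 0.349, 0.331, 0.050 and 0.0549 CPM, so its groups overlapped, with the GL261-GSCs libraries on both sides of GL261. These genes are named after their values were seen.

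In free RNA of the GL261-GSCs libraries, outside called cells, Ly6a had 5, 1, 2 and 0 UMIs and Ly6d 2, 0, 1 and 4 UMIs, while no GL261-GSCs cell had a Ly6d UMI. In GL261 the number of Ly6a UMIs per Ly6c1 UMI was 4.48 and 6.08 in cells and 5.06 and 6.90 in free RNA.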
